A study of Homo sapiens with 12 samples.

Results

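The mitochondrial genome encodes 13 proteins, and 10 of their genes are described here: MT-ND1, MT-ND2, MT-ND3, MT-ND4, MT-CYB, MT-CO1, MT-CO2, MT-CO3, MT-ATP6 and MT-ATP8. They were chosen by name from the 20212 genes of the count table. Ribosome-protected fragments (RF) and total RNA were sequenced from PANC-1 cells, an established human pancreatic cancer line that the study describes as lacking the translational repressor 4EBP1. The cells received the vehicle DMSO (3 cultures) or rapamycin (50 nM; 60 min; 3 cultures), and the labels give no other difference between the groups. Rapamycin inhibits the mTORC1 kinase complex, a regulator of cytosolic protein synthesis. An RF library and a total RNA library were made from every one of the 6 cultures, 12 in all. The comparison asks how RF level, RNA level and their ratio, the translation efficiency (TE), differed after rapamycin. RF level stands for ribosome occupancy here, and whether all RF counts of these genes are ribosome footprints was not tested.

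Mitochondria keep a small circular genome whose genes are transcribed as long precursors and cut into mRNAs that carry very short or no untranslated ends. Its mRNAs are read by mitochondrial ribosomes inside the organelle, with their own initiation factors and a genetic code in which ATA and ATT can start a protein. All of the encoded proteins are hydrophobic cores of the respiratory chain and of ATP synthase, and they are assembled with subunits that are encoded in the nucleus, translated in the cytosol and imported. MT-ND1 to MT-ND4 belong to complex I, which takes electrons from NADH. MT-CYB is the haem-carrying core of complex III, MT-CO1, MT-CO2 and MT-CO3 form the core of complex IV, which reduces oxygen, and MT-ATP6 and MT-ATP8 belong to the membrane part of complex V, which makes ATP.

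All 10 genes lie on the + strand of the mitochondrial sequence MT of GRCh37, which is 16569 bases long, and none has an intron. In map order, MT-ND1 (ENSG00000198888) spans MT:3307-4262, MT-ND2 (ENSG00000198763) MT:4470-5511, MT-CO1 (ENSG00000198804) MT:5904-7445 and MT-CO2 (ENSG00000198712) MT:7586-8269. MT-ATP8 (ENSG00000228253) spans MT:8366-8572, MT-ATP6 (ENSG00000198899) MT:8527-9207 and MT-CO3 (ENSG00000198938) MT:9207-9990. MT-ND3 (ENSG00000198840) spans MT:10059-10404, MT-ND4 (ENSG00000198886) MT:10760-12137 and MT-CYB (ENSG00000198727) MT:14747-15887. The shortest is MT-ATP8, with 207 bases, and the longest is MT-CO1, with 1542.

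The junctions of MT-ATP8, MT-ATP6 and MT-CO3 are shown because these genes overlap on the same strand, so that some bases belong to 2 of them. The start of MT-ND2 and both ends of MT-ND3 are shown as examples of a non-ATG start and of an incomplete stop. MT-ND1, like MT-ND3, starts with ATA, and the other 7 genes start with ATG. Sequences are from GRCh37, 5′ to 3′ on the + strand, with the start codon or the encoded letters of the stop codon in capitals.
MT-ATP6 start, MT:8527-8550: ATGaacgaaaatctgttcgcttca
MT-ATP8 end, MT:8558-8572: cccccacaatccTAG
MT-ATP6 end, MT:9193-9207: cacgacaacacaTAA
MT-CO3 start, MT:9207-9230: ATGacccaccaatcacatgcctat
MT-ND2 start, MT:4470-4493: ATTaatcccctggcccaacccgtc
MT-ND3 start, MT:10059-10082: ATAaacttcgccttaattttaata
MT-ND3 end, MT:10390-10404: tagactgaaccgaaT
MT-ATP6 starts inside MT-ATP8 and shares 46 bases with it, which is 22.2% of MT-ATP8, and the last base of MT-ATP6 is the first of MT-CO3. MT-ND4 shares its first 7 bases with MT-ND4L, which is not among the 10. The other genes share no base with a protein-coding gene. MT-ND3 ends with a single T of its stop codon, as do MT-ND2, MT-CO3, MT-ND4 and MT-CYB, and MT-ND1 ends with TA. Polyadenylation is known to complete such codons.

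Not every base of these genes could be counted, since the deposited counts are of uniquely aligned reads and the nuclear genome holds copies of mitochondrial DNA. Windows of 30 bases, close to the length of an RF read, were searched in both strands of GRCh37. Of the 8471 windows in the 10 genes, 4878 (57.6%) occurred once. The share was 95.3% in MT-ND3, 92.3% in MT-CYB, 77.0% in MT-ND4, 65.7% in MT-ND1, 53.9% in MT-CO3 and 53.4% in MT-ATP8. It was lower in MT-CO2 (48.4%), MT-ND2 (42.0%), MT-ATP6 (33.7%) and MT-CO1 (29.0%). A block of copies on chromosome 1 aligned along the whole of MT-ND2, MT-CO1, MT-CO2, MT-ATP8 and MT-ATP6, at 97.6% to 98.6% identity. It aligned to 36.8% of MT-ND1 and 70.0% of MT-CO3, and to none of MT-ND3, MT-ND4 and MT-CYB. With windows of 60 bases, the share that occurred once rose to between 55.9% in MT-CO1 and 100% in MT-ND3. Levels of different genes are therefore given below both per kilobase and per window that occurs once.

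The RF libraries held between 278835 and 1574723 counts and the total RNA libraries between 78081241 and 94293744. A count of 0 in an RF library allows up to 3 counts, or 1.91 to 10.8 CPM (counts scaled to library size), and all 10 genes lay far above that, with between 36 counts (MT-ND4, rapamycin 3) and 3266 counts (MT-CO1, DMSO 3) per RF library. Intervals and this limit cover counting error only, since the reads carried no molecular identifiers. The 6 epithelial markers reported here, KRT8, KRT18, KRT19, KRT7, EPCAM and SOX9, were at or above 1 FPKM in every total RNA library. Of 8 markers of other cell types, 7 were under 1 FPKM in every library, and COL1A1 was at 0.67 to 1.53.

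The 10 genes took a similar, small share of both library types. In RF they held 0.707%, 0.804% and 0.636% of the counts in DMSO 1, 2 and 3, and 0.719%, 0.651% and 0.539% in rapamycin 1, 2 and 3. The widest 95% Wilson interval of these shares was that of DMSO 1, from 0.678% to 0.737%, and that of rapamycin 3 ran from 0.512% to 0.567%. The means were 0.716% ± 0.084 in DMSO and 0.636% ± 0.091 in rapamycin (SD, n = 3), and the groups overlapped. In total RNA the share was 0.795%, 0.878% and 0.803% in DMSO and 0.790%, 0.954% and 0.788% in rapamycin, so that only rapamycin 2 exceeded 0.9%. Among the counts of the 10 genes, MT-CO1 held the most in every library, 29.3% to 32.6% in RF and 32.3% to 35.9% in total RNA. MT-CYB was second in every RF library, with 14.05% to 16.9%, and MT-CO3 was second in every total RNA library, with 25.3% to 28.9%.

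Levels per length, in CPM per kilobase, fell into a few steps. In total RNA the 3 complex IV genes stood highest. In DMSO, MT-CO3 was at 2934 ± 264 CPM per kilobase, MT-CO1 at 1873 ± 91.6 and MT-CO2 at 1677 ± 108 (SD, n = 3), in this order in 6 of 6 cultures. MT-ND1 followed at 437 ± 23.4, above MT-ATP6 in 6 of 6 cultures. MT-ND3, MT-ATP6, MT-CYB, MT-ATP8 and MT-ND4 lay close together, between 328 and 389.6, and MT-ATP8 was below MT-ND3, MT-ATP6 and MT-CYB in 6 of 6 cultures, whereas every other pair of these 5 genes changed places between cultures. MT-ND2 was lowest in every culture, at 147 ± 9.76. The span from MT-CO3 to MT-ND2 was 18.9-fold over the 6 cultures.

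The same total RNA counts were also divided by the number of 30-base windows that occur once. This changed the order of levels, averaged over the 6 cultures. MT-CO1 was then the highest in 6 of 6, at 6590 CPM per 1000 such windows, above MT-CO3 (5654) and MT-CO2 (3612.5). MT-ATP6 (1225) and MT-ATP8 (776) came next, both above MT-ND1 (705) in 6 of 6 cultures. MT-ND4 (479.6), MT-ND3 (443) and MT-CYB (437) followed closely. MT-ND2 (382) had the lowest mean and was below MT-CYB in 6 of 6, but it exceeded MT-ND3 in rapamycin 2. The complex IV genes thus kept the first 3 places on both scales, with MT-CO1 and MT-CO3 exchanged, and the span was 17.3-fold. Windows of 30 bases are close to RF reads, whereas total RNA was sequenced as paired ends. With 60 bases, 55.9% of the windows of MT-CO1 and 75.6% of those of MT-CO3 occurred once, against 29.0% and 53.9% with 30. Whether the changed order holds with 60-base windows was not examined.

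FPKM, the authors' value per length and depth, gave the same 3 genes on top in DMSO. MT-CO3 was at 3454 ± 329 FPKM, MT-CO1 at 1953 ± 109 and MT-CO2 at 1795 ± 157 (SD, n = 3), ranks 23, 40 and 44 of the 63653 genes listed. MT-ND2 was again lowest, at 148 ± 9.03 FPKM, rank 634. MT-ATP8, the shortest, moved from the eighth place per kilobase to the fourth, at 626 ± 43.1 FPKM.

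RF levels per length followed a different order. Averaged over the 6 cultures, MT-ATP8 was at 1370.5 CPM per kilobase, MT-CO1 at 1346 and MT-ND3 at 1172. MT-ATP6, MT-CO2, MT-CO3 and MT-CYB were nearly level, between 929 and 942. These 7 genes were separated from the other 3 in every culture, since MT-CYB exceeded MT-ND2 in 6 of 6. MT-ND2 (338), MT-ND1 (305) and MT-ND4 (196), all of complex I, formed the lower group, 7.00-fold from top to bottom. Within the upper group MT-ATP8 exceeded MT-CO1 in 2 of 6 cultures, so these neighbours were not distinguished.

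The order of RF levels also depended on whether counts were divided by length or by windows that occur once. Per window that occurs once, MT-CO1 stood highest in 6 of 6 cultures, at 4738 CPM per 1000 windows, followed by MT-ATP8 (2986) and MT-ATP6 (2917), which exceeded each other in 3 cultures each. MT-CO2 (2032) and MT-CO3 (1804.5) came next. MT-ND3 (1342) and MT-CYB (1033) fell to sixth and seventh place. MT-ND2 (829.9), MT-ND1 (479) and MT-ND4 (259.6) remained the lowest 3, in this order in 6 of 6 cultures, and the span widened to 18.3-fold.

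**Figure D1:**
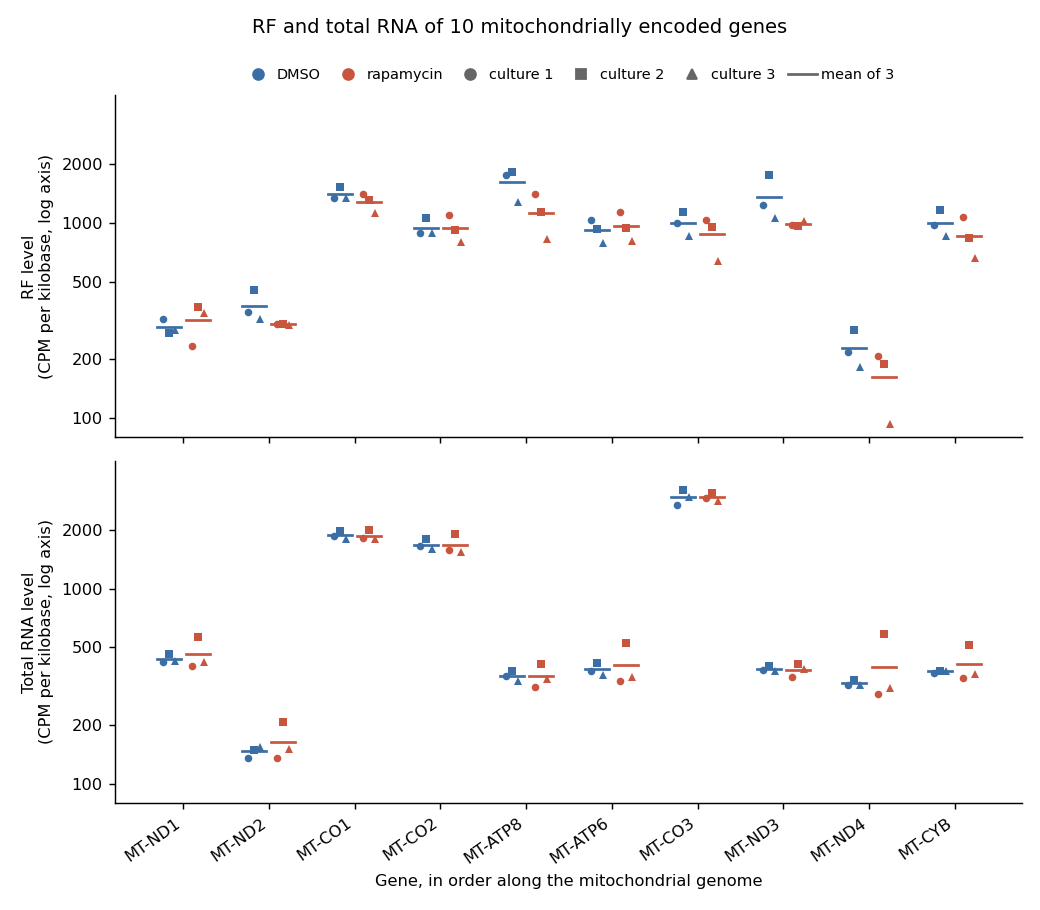
RF (top) and total RNA (bottom) level of each gene in CPM per kilobase on log axes, in map order; each point is 1 culture (DMSO blue, rapamycin red; symbol shape gives the culture) and each bar the mean of 3. Total RNA of MT-CO1, MT-CO2 and MT-CO3 stands above the rest, RF of MT-ND1, MT-ND2 and MT-ND4 stands below the rest, and the treatments overlap for most genes.

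The ratio of RF to total RNA CPM, in which gene length cancels, split the genes into 2 classes. The same 5 genes lay above 1 in every culture, and the other 5 lay below 1. In DMSO 1, 2 and 3, MT-ATP8 had ratios of 4.94, 4.78 and 3.83, and MT-ND3 of 3.22, 4.37 and 2.80. The remaining genes of the higher class, MT-CYB, MT-ND2 and MT-ATP6, had DMSO means of 2.66 ± 0.40, 2.56 ± 0.47 and 2.39 ± 0.31 (SD, n = 3). In the lower class were MT-CO1 at 0.750 ± 0.023, MT-ND4 at 0.693 ± 0.13, MT-ND1 at 0.672 ± 0.087 and MT-CO2 at 0.563 ± 0.023. MT-CO3 was lowest, at 0.341 ± 0.043.

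Among the 10 genes, the break between the classes was clear of the spread between cultures. MT-ND2, the lowest of the higher class, exceeded MT-CO1, the highest of the lower class, in 6 of 6 cultures, and their ranges, 1.47 to 3.01 and 0.624 to 0.780, did not overlap. MT-CO3 was the lowest of the 10 in 6 of 6 cultures. Other neighbours in the order overlapped. The clear break does not extend to all mitochondrially encoded genes. MT-ND4L, which is not among the 10, had ratios of 0.738 to 1.51 and overlapped both MT-CO1 and MT-ND2. MT-ND5 (3.42 to 7.90) and MT-ND6 (1.72 to 4.74), also not among the 10, lay above 1 in every culture. Within the 10 genes, only complex I was split between the classes, with 2 genes in each. All 3 complex IV genes were in the lower class. MT-ATP8 and MT-ATP6 of complex V and MT-CYB of complex III were in the higher. Set among the 13329 genes tested, whose median ratio in DMSO was 0.645, MT-ATP8 was at the 84.2 percentile, MT-ND3 at 82.7, MT-CYB at 80.8, MT-ND2 at 80.4 and MT-ATP6 at 79.8. MT-CO1 was at 56.0, MT-ND4 at 53.1, MT-ND1 at 51.4, MT-CO2 at 44.5 and MT-CO3 at 24.5. Ratios spanned 13.3-fold over the 10 genes in DMSO and 10.6-fold in rapamycin, by the ratio of group means. The share of windows that occur once enters the RF and the RNA count of a gene, and its part in these ratios was not tested.

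**Figure D2:**
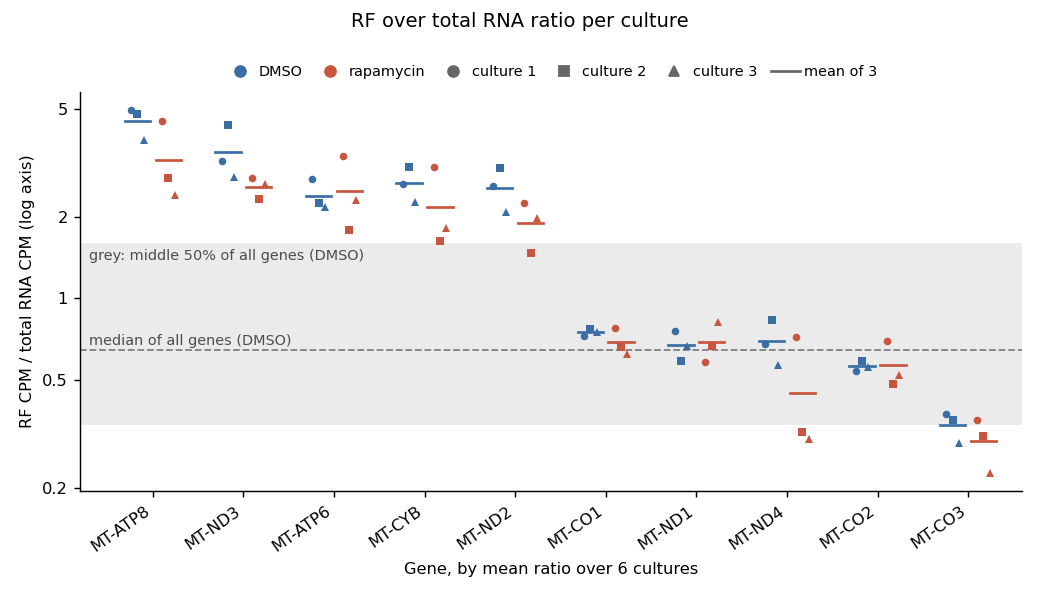
RF CPM over total RNA CPM of each gene on a log axis, ordered by the mean over 6 cultures; points are cultures, bars the means of 3, the dashed line the median of the 13329 genes tested in DMSO (0.645) and the grey band their middle 50%, from 0.344 to 1.58. MT-ATP8, MT-ND3, MT-ATP6, MT-CYB and MT-ND2 stand above the other genes in every culture, and MT-CO3 is lowest.

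After rapamycin, the mean RF level of most of these genes was lower, but no difference was large enough against the spread between cultures to be called. By edgeR's quasi-likelihood F-test on RF counts (Benjamini-Hochberg adjusted), 0 of the 10 were called at an adjusted p under 0.05, where 0% of the 13329 genes tested were called, and each adjusted p was 0.9999. DESeq2's Wald test also called 0 of the 10. Of the 10, 9 had a lower fitted value in rapamycin, beside 48.7% of all genes tested, and the median log2 fold change was -0.28, beside 0.02 for all genes. At an unadjusted p under 0.05, MT-ND3 and MT-ATP8 were lower, beside 1.92% of all genes. The p-values measure the spread between these cultures, and in bulk cultures a lower level per cell and fewer cells holding the RNA cannot be told apart.

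Among the complex I genes, RF of MT-ND3 was 429, 609 and 368 CPM in DMSO 1, 2 and 3 and 338, 333 and 355 CPM in rapamycin. RF of MT-ND2 was 366, 471 and 334 CPM in DMSO and 318, 315 and 312 CPM in rapamycin. These were the 2 genes of the 10 whose groups did not overlap, where 4.21% of all genes tested had all of rapamycin below all of DMSO, and DMSO 2 was the highest for both. MT-ND3 had a log2 fold change of -0.56 ± 0.24 (SE) and MT-ND2 of -0.40 ± 0.23. Without DMSO 2 these values were -0.26 and -0.19. RF of MT-ND4 was 300.1, 392 and 251 CPM in DMSO and 287, 259.9 and 129 CPM in rapamycin. The change of -0.54 ± 0.31 (SE) rested in part on rapamycin 3, with 36 counts, and was -0.26 without that culture. MT-ND1, whose product forms part of the membrane arm near the quinone site, had 307, 259.9 and 272 CPM in DMSO and 225, 357 and 329.9 CPM in rapamycin. Rapamycin held both its lowest and its highest culture, and the change was 0.03 ± 0.23 (SE).

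RF of MT-CYB, the complex III gene, was 1118, 1329 and 981 CPM in DMSO and 1218.5, 957.5 and 757 CPM in rapamycin, a log2 fold change of -0.30 ± 0.23 (SE). The groups overlapped, since rapamycin 1 exceeded DMSO 1 and DMSO 3. For complex IV, RF of MT-CO1 was 2081, 2352 and 2074 CPM in DMSO and 2182, 2034 and 1729 CPM in rapamycin. RF of MT-CO2 was 610.1, 722 and 607 CPM in DMSO and 749, 628 and 549 CPM in rapamycin. RF of MT-CO3 was 785, 889.8 and 672.5 CPM in DMSO and 809, 748 and 502 CPM in rapamycin. All 3 overlapped between the groups, with log2 fold changes of -0.21 ± 0.20, -0.09 ± 0.22 and -0.26 ± 0.24 (SE). Rapamycin 3 was the lowest culture for each.

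The complex V genes differed from each other, although they share an mRNA. RF of MT-ATP8 was 363, 376 and 265 CPM in DMSO and 291, 235 and 172 CPM in rapamycin, a log2 fold change of -0.58 ± 0.27 (SE). Its groups overlapped only in that rapamycin 1 exceeded DMSO 3. RF of MT-ATP6 was 709, 638 and 537 CPM in DMSO and 774, 639.6 and 552 CPM in rapamycin, a change of -0.0039 ± 0.22 (SE). Neither change was called.

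Part of this pattern followed single libraries. Scaled by TMM, the RF library of DMSO 2 was the highest of the 6 for 8 of the 10 genes, where it was the highest for 23.0% of 1274 genes with a mean of at least 100 RF counts. The RF library of rapamycin 3, the smallest, was the lowest for 8 of the 10, where it was the lowest for 30.6% of those genes. DMSO 2 also detected few genes for its depth, 12568 in 881106 RF counts. Rapamycin 2 detected 15402 in 792690, and rapamycin 3 detected 12567 in 278835. The part of this in the RF differences was not tested. Across the 6 RF libraries, log2 levels of 9 genes moved together, with Pearson's r between 0.71 (MT-ATP6) and 0.97 (MT-CYB) to the mean of the other members. MT-ND1 did not, with r of -0.43. These values describe 6 libraries that share depth and preparation, and their part in the treatment difference was not tested.

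MT-ATP8 relative to MT-ATP6 was examined because both are read from the same mRNA. Per kilobase, the RF ratio of MT-ATP8 to MT-ATP6 was 1.68, 1.94 and 1.63 in DMSO and 1.24, 1.21 and 1.03 in rapamycin. The groups did not overlap. Whether the ratio lay above 1 depended on the scale, since per window that occurs once it was 1.18, 1.36 and 1.14 in DMSO and 0.872, 0.850 and 0.722 in rapamycin. The change between the groups is the same on both scales. On the log2 scale the rapamycin ratio was lower by -0.60, with a two-sided exact permutation p of 0.1, the smallest that 3 cultures against 3 allow. Leaving out each culture in turn gave -0.65 to -0.51. In total RNA the same ratio was 0.938, 0.913 and 0.924 in DMSO and 0.927, 0.776 and 0.978 in rapamycin, and the groups overlapped. Of the 45 pairs of the 10 genes, 8 had RF ratios whose groups did not overlap (17.8%), and 0 of 45 had such ratios in total RNA. In 4 of the 8, MT-ATP8 fell against MT-CO2, MT-ATP6, MT-CO3 or MT-CYB. Pairs that share a gene are not independent, and the share over pairs of all genes tested was not computed. The pair of MT-ATP8 and MT-ATP6 was described with its values known and is no test of the other members.

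**Figure D3:**
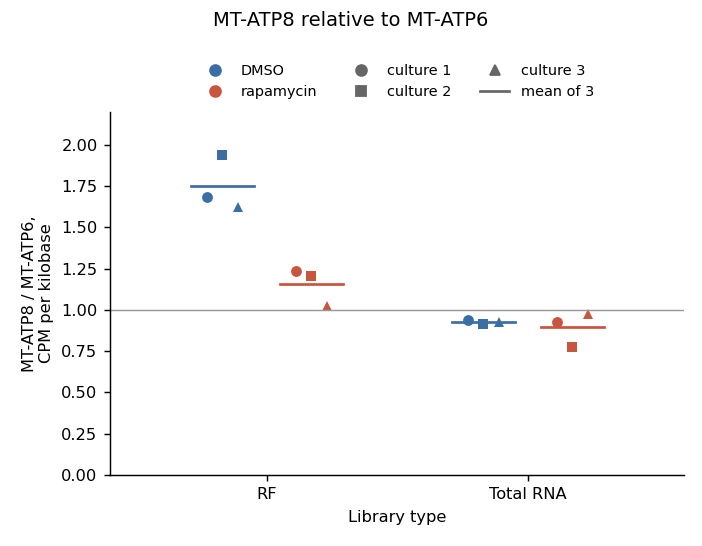
Ratio of MT-ATP8 to MT-ATP6, each in CPM per kilobase, in RF and in total RNA libraries; points are cultures, bars the means of 3 and the grey line a ratio of 1. The RF ratio is 1.63 to 1.94 in DMSO and 1.03 to 1.24 in rapamycin on this scale (1.14 to 1.36 and 0.722 to 0.872 per window that occurs once), and the total RNA ratio is 0.776 to 0.978 in all 6 cultures.

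Total RNA of the 10 genes did not separate the treatments. By edgeR's quasi-likelihood F-test (Benjamini-Hochberg adjusted), 0 of the 10 were called (0% of all genes tested), with adjusted p between 0.796 and 0.979. With all libraries, the count at an unadjusted p under 0.05 was 0, beside 2.51% of all genes lower and 3.32% higher, and DESeq2's Wald test and limma-trend on log2(FPKM + 1) also called 0 of the 10. Fitted values were lower for 5 and higher for 5, the median log2 fold change was 0.03 beside 0.006 for all genes, and the groups overlapped for every member, where 6.61% of all genes were wholly lower in rapamycin and 8.22% wholly higher. The 5 with fitted values below 0 were MT-CO1, MT-CO2, MT-CO3, MT-ATP8 and MT-ND3, none further from 0 than -0.03. Total RNA of MT-CO1 was 2858, 3042 and 2764 CPM in DMSO 1, 2 and 3 and 2798, 3085 and 2771 CPM in rapamycin. Total RNA of MT-ND3 was 133, 139.6 and 132 CPM in DMSO and 121, 143 and 134 CPM in rapamycin. Total RNA of MT-ATP8 was 73.5, 78.5 and 69.3 CPM in DMSO and 64.8, 84.7 and 71.3 CPM in rapamycin. In each of these 3, rapamycin 2 was the highest and the other rapamycin cultures lay within or below the DMSO range.

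The 5 higher fitted values came with 1 library. Total RNA of MT-ND4 was 443, 470.0 and 441 CPM in DMSO and 398, 811 and 427 CPM in rapamycin. Total RNA of MT-CYB was 422, 434 and 432 CPM in DMSO and 398, 587 and 417 CPM in rapamycin. In both, rapamycin 2 stood far above 5 libraries that lay close together. Scaled by TMM, rapamycin 2 exceeded the mean of the other 5 libraries 1.87-fold for MT-ND4, 1.43-fold for MT-ATP6, 1.42-fold for MT-ND2, 1.40-fold for MT-CYB and 1.32-fold for MT-ND1. For the other 5 genes it was 1.06-fold (MT-CO3) to 1.19-fold (MT-ATP8). The excess was thus unequal among the 10 genes.

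Rapamycin 2 was the highest of the 6 total RNA libraries for 9 of the 10 genes, where it was the highest for 26.2% of 11482 genes with a mean of at least 100 counts. It exceeded the others at least 1.3-fold for 5 of the 10, beside 3.37% of those genes, and no other library did so for any of the 10. FPKM gave 1.95-fold for MT-ND4 and 1.05-fold for MT-CO3. In the FPKM table, the mitochondrial ribosomal RNA MT-RNR1 is listed at 0 in rapamycin 2 and between 21316 and 23410 FPKM in the other 5 libraries, and MT-RNR2 is listed at 0 in all 6. Without rapamycin 2, the log2 fold changes of total RNA turned to -0.14 for MT-ND4, -0.17 for MT-ATP6, -0.10 for MT-ND1, -0.08 for MT-CYB and -0.04 for MT-ND2. All 10 fitted values were then below 0, from -0.17 to -0.04, with a median of -0.09 beside 0.0019 for all genes. At an unadjusted p under 0.05, 6 of the 10 were lower (MT-CO2, MT-ATP8, MT-ATP6, MT-ND1, MT-ND4 and MT-CYB), beside 2.51% of the 12743 genes then tested. By edgeR's test 0 of the 10 were called in this setting, with Benjamini-Hochberg adjusted p between 0.906 and 0.931.

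**Figure D4:**
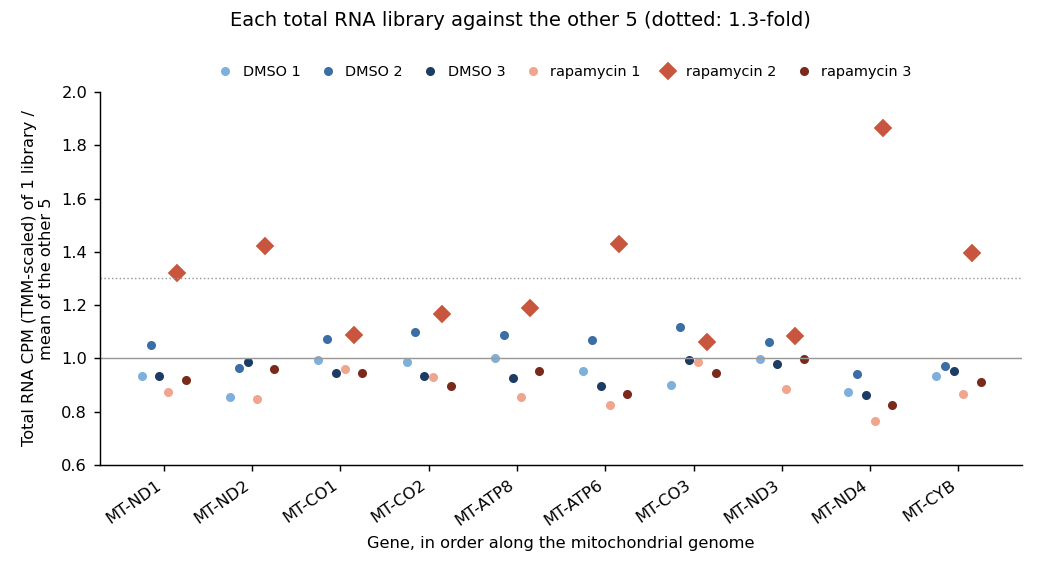
TMM-scaled total RNA CPM of each library divided by the mean of the other 5, by gene in map order; diamonds are rapamycin 2, the other libraries are circles, and the dotted line marks 1.3-fold. Rapamycin 2 lies at 1.06 to 1.87 and is highest for every gene but MT-CO3.

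The change in TE combines the 2 preceding comparisons, since it is the change of RF relative to total RNA in one model over the same 12 libraries. By edgeR's quasi-likelihood F-test of this interaction (Benjamini-Hochberg adjusted), 0 of the 10 genes were called, where 0% of the 13329 genes tested were called in either direction, and the adjusted p lay between 0.396 and 0.953. At an unadjusted p under 0.05 there were 0 of the 10, beside 6.42% of all genes lower and 6.17% higher. DESeq2's Wald test, which called 619 genes lower and 685 higher, and limma voom, which called 0 genes, also called 0 of the 10. All 10 had a fitted value below 0, beside 53.7% of all genes tested, and their median log2 fold change was -0.33, beside -0.06 for all genes.

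Of the 10, MT-ND4 had the lowest fitted value and MT-ND1, also of complex I, the one nearest to 0. MT-ND4 had a log2 fold change in TE of -0.78 ± 0.43, MT-ND2 of -0.56 ± 0.26 and MT-ND3 of -0.53 ± 0.26, while MT-ND1 had -0.05 ± 0.23 (SE, 3 cultures a group). For MT-ND3, whose RF over RNA ratio was 2.78, 2.33 and 2.64 in rapamycin, the 3 rapamycin cultures were all below the 3 DMSO cultures, as for 6.19% of all genes. It was the only one of the 10, and the nearest cultures, DMSO 3 at 2.80 and rapamycin 1 at 2.78, were almost equal. MT-CYB had -0.41 ± 0.29, and in complex V MT-ATP8 had -0.54 ± 0.30 and MT-ATP6 -0.06 ± 0.27 (SE). The complex IV genes had fitted values nearer to 0, -0.25 ± 0.25 for MT-CO3, -0.20 ± 0.18 for MT-CO1 and -0.08 ± 0.23 for MT-CO2 (SE). These SEs come from a model with 1 dispersion for RF and total RNA and no term for culture. With limma voom and a variance per library type, the SE was larger for each of the 10, from 0.31 (MT-CO1) to 3.38 (MT-ND4). The SEs of TE given here may therefore be too small.

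Where the fitted values were low, rapamycin 1 stayed near the DMSO cultures. The RF over RNA ratio of MT-ND4 was 0.677, 0.833 and 0.569 in DMSO and 0.721, 0.320 and 0.303 in rapamycin. That of MT-ATP8, given above for DMSO, was 4.50, 2.77 and 2.42 in rapamycin. That of MT-CYB was 2.65, 3.06 and 2.27 in DMSO and 3.06, 1.63 and 1.81 in rapamycin. In these 3 genes rapamycin 1 lay inside the DMSO range and the other 2 rapamycin cultures lay below it. Without rapamycin 1 the log2 fold changes in TE were -1.22 for MT-ND4, -0.89 for MT-ATP8 and -0.77 for MT-CYB, and none was called. For MT-ND2 the ratio was 2.59, 3.01 and 2.08 in DMSO and 2.24, 1.47 and 1.98 in rapamycin, and the overlap was again due to rapamycin 1.

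The count of 10 below 0 depended on the total RNA library of rapamycin 2. With that library left out and its RF library kept, an alternative chosen after seeing the data, 7 of 10 were below 0 and the median was -0.21. MT-CO2 was then at 0.03, MT-ND1 at 0.12 and MT-ATP6 at 0.18. MT-ND4 moved to -0.37, MT-CYB to -0.21 and MT-ND2 to -0.36, whereas MT-ND3 at -0.47 and MT-ATP8 at -0.43 moved less. Over 16 alternative settings the smallest adjusted p of any member was 0.157, for MT-ND3 without DMSO 3.

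**Figure D5:**
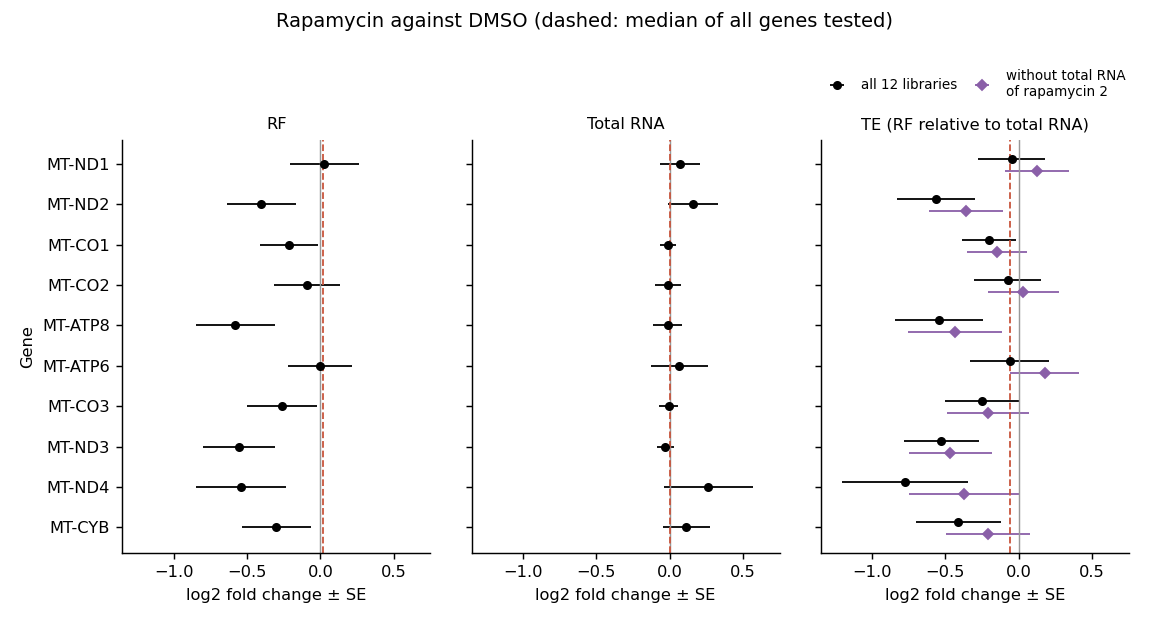
Log2 fold change (rapamycin against DMSO) with its SE for RF, total RNA and TE of each gene in map order; black circles use all 12 libraries, violet diamonds leave out the total RNA library of rapamycin 2, and dashed lines are the medians of the 13329 genes tested. RF and TE values lie mostly below 0, total RNA values lie near 0 with the widest errors for MT-ND4, and 3 TE values cross 0 when that library is left out.

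The partner proteins from the nucleus were set beside these values. By the same F-test of edgeR, 0 genes of any of the following lists were called in TE, RF or total RNA. Of 37 nuclear subunits of complex I, TE was lower for 2 and higher for 2 at an unadjusted p under 0.05, beside the 6.42% and 6.17% of all genes, and their median TE change was 0.10 (log2). DESeq2's Wald test called 3 of them lower and 5 higher, where it called 4.65% of all genes lower and 5.14% higher. For 9 subunits of complex III the median was -0.08 with 1 lower at an unadjusted p under 0.05, and the Wald test called that number too. For 10 subunits of complex IV it was -0.10 and for 15 of complex V -0.02, with 0 at an unadjusted p under 0.05 and 0 by the Wald test. All 4 medians were nearer to 0 than the -0.33 of the mitochondrially encoded genes, a description of the lists and not a test of their difference.

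Named by their RF counts, the complex I subunits NDUFA1, NDUFS5 and NDUFB9 had log2 fold changes in TE of 0.19 ± 0.23, -0.20 ± 0.31 and 0.19 ± 0.30 (SE). In complex III, UQCRC2, a core subunit, had 0.04 ± 0.24, UQCRH, the hinge protein, -0.51 ± 0.21 and UQCRB -0.09 ± 0.22. In complex IV, COX7A2 had -0.33 ± 0.22, COX7C 0.0041 ± 0.23 and COX4I1 0.09 ± 0.28. In complex V, the catalytic ATP5B had -0.00044 ± 0.18, ATP5L -0.27 ± 0.28 and ATP5A1 -0.13 ± 0.21 (SE). UQCRH had the lowest unadjusted p of these 12, with a Benjamini-Hochberg adjusted p of 0.344 by edgeR's test.

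Total RNA of the nuclear subunits was slightly lower in the fits for most, 31 of 37 in complex I, 9 of 9 in complex III, 8 of 10 in complex IV and 13 of 15 in complex V, beside 46.8% of all genes. The medians lay between -0.05 and -0.03, so these were shifts of a few percent. Of the mitochondrially encoded genes, 5 of 10 were lower with all libraries and 10 of 10 without rapamycin 2, and a difference from the nuclear subunits was not tested.

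Factors that express the mitochondrial genome, among them polymerase, translation and RNA-stability proteins, were matched for 39 genes, with a median TE change of 0.02 (log2). At an unadjusted p under 0.05, 1 was lower in TE and 4 were higher (6.42% and 6.17% of all genes), and DESeq2's Wald test called 2 lower and 2 higher (4.65% and 5.14% of all genes). Those with the most RF counts were MTIF3, a mitochondrial initiation factor, at 0.45 ± 0.36, LRPPRC, which stabilises mitochondrial mRNAs, at -0.19 ± 0.20, and TUFM, the mitochondrial elongation factor Tu, at -0.13 ± 0.35 (SE). MTIF3 had 837 RF CPM on 17.2 total RNA CPM in DMSO, a ratio of 48.6, beside 0.563 for LRPPRC and 0.800 for TUFM. Whether all RF counts of MTIF3 are footprints of its coding sequence was not tested. For 23 assembly factors of complexes IV and V the median was 0.10, with unadjusted p under 0.05 for 1 that was lower and 2 that were higher, the numbers that the Wald test also called. COX15 had -0.09 ± 0.42, COX11 -0.69 ± 0.30 and TMEM70 0.29 ± 0.36 (SE).

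Genes whose RF level followed the mean of the 10 most closely over the 6 RF libraries were DNAJA1 (r = 0.996), STMN1 (0.974), EIF4G1 (0.967), RPS24 (0.963) and KTN1 (0.953), of 728 genes with at least 50 counts in each library. The 10 members were left out of this search. MT-ND6, with 49 counts in rapamycin 3, and MT-ND4L, with 22 in DMSO 1, fell under the minimum. MT-ND5, the gene of another complex I subunit, was thus the only mitochondrially encoded gene searched, at rank 22 with r of 0.908. With 6 libraries that share depth, these are descriptions of likeness.

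The chromosome 1 copies were low in the FPKM table beside their mitochondrial originals. MTCO1P12 was at 4.47 to 5.35 FPKM, MTND2P28 at 7.22 to 15.7 and MTCO2P12 at 0.128 to 0.867 over the 6 total RNA libraries. MTATP6P1 was the highest of the 7 copies, at 35.5 to 53.8 FPKM, where MT-ATP6 was at 324 to 514. For MTND2P28, MTATP6P1, MTCO2P12 and MTATP8P1, as for their originals, the highest library was rapamycin 2, though the last 2 stayed under 1 FPKM. It was DMSO 1 for MTCO1P12 and rapamycin 3 for MTND1P23, unlike MT-CO1 and MT-ND1, which were highest in rapamycin 2. MTCO3P12 and MT-CO3 were both highest in DMSO 2. The 7 copies are not in the count table, which lists protein-coding genes.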

How the data were processed

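RF and total RNA of 6 PANC-1 cultures were measured as 12 libraries, grouped by the labels. The authors deposited raw counts per protein-coding gene, of exonic reads with a single alignment (GRCh37, HISAT2, featureCounts; the handling of reads on overlapping genes is not given in the sources used here), after quality filtering, linker trimming and removal of short and ribosomal RNA reads. The authors also deposited FPKM of total RNA (Cufflinks 2.2.1, cuffnorm). Their fold changes, ratios and p-values were not used. Genes with at least 10 counts summed over RF and 10 over total RNA libraries (13329 of 20212) were tested in R 4.3.3 with edgeR 4.0.16 (robust quasi-likelihood, TMM within library type, Benjamini-Hochberg over all genes). TE was tested as the treatment by library type interaction, and RF and total RNA were also tested alone. The SE of an edgeR log2 fold change was derived as its absolute value divided by the square root of its F statistic. DESeq2 1.42.0 and limma 3.58.1 were alternatives; RiboDiff was not used here. CPM are counts divided by the library total and multiplied by 1e6, and fold changes use TMM-scaled sizes. Values came from Python 3.11 (pandas 2.3.3, scipy 1.17.1). Scripts were tested on simulated data. Depth ranged from 278835 counts (RF) to 94293744 (RNA), and the biological coefficient of variation was 54.9% in RF, 5.31% in total RNA and 24.4% jointly. Named genes are the 10 members, the 3 genes of each list with the most RF counts, and the 5 genes most like the members in RF. Members and lists were chosen with earlier results of these data known. One further epithelial marker is not reported here.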

Additional observations from a re-analysis of the deposited data

How the results depend on the processing

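The members' calls held throughout, since 0 of the 10 genes were called in TE, RF or total RNA under any of the 16, 12 and 15 alternatives run for these tests, while the count over all genes changed. In TE, DESeq2's Wald test called 619 genes lower and 685 higher, and leaving out each culture gave 0 to 331 lower and 0 to 65 higher, with 331 and 65 without DMSO 3. In RF, the Wald test called 1 lower and 4 higher, no filter beyond 1 count 10 and 10, library sizes without mitochondrially encoded genes 1 higher, and leaving out each culture 0 to 1 lower and 0 to 5 higher. In total RNA, the Wald test called 4 lower and 25 higher, limma-trend on log2(FPKM + 1) 3 and 1, with a pseudocount of 0.1 2 and 1 and with no minimum 3 lower, and leaving out each culture 0 to 4 lower and 0 to 683 higher, 4 and 683 of them without DMSO 3. Total RNA of DMSO 1 and DMSO 2 detected 16840 and 16858 genes, and the other total RNA libraries 19751 to 19847. Without DMSO 3 this difference coincided with the treatment groups, and its part in the TE and total RNA calls was not tested. The numbers of the cultures did not pair them, with r of same-numbered deviations between -0.24 and -0.10 in RF and between -0.21 and -0.09 in total RNA, so that no culture correlated best with its own number. With a replicate block, RF calls were 2 lower and 4 higher, and the block changed no call of the 10 genes.

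Signs of small fitted values changed. In TE, MT-CO2 went to 0.031, MT-ATP6 to 0.18 and MT-ND1 to 0.12 without the total RNA of rapamycin 2, and MT-ATP6 to 0.12 with limma voom. Leaving out each culture, TE ranged from -0.30 to 0.063 for MT-CO2, from -0.38 to 0.21 for MT-ATP6 and from -0.14 to 0.014 for MT-ND1. RF of MT-ATP6 was 1.57e-05 with the Wald test and 0.0053 without the filter. Leaving out each culture, RF ranged from -0.27 to 0.041 for MT-CO2, from -0.20 to 0.13 for MT-ATP6 and from -0.10 to 0.17 for MT-ND1. In total RNA, at least 50 counts gave 0.0013 for MT-CO1 and 0.0045 for MT-CO3, and limma-trend gave 0.018 for MT-ATP8 with each FPKM setting. Leaving out each culture, total RNA ranged from -0.063 to 0.034 for MT-CO1, -0.12 to 0.048 for MT-CO2, -0.070 to 0.065 for MT-CO3, -0.17 to 0.18 for MT-ATP6 and -0.13 to 0.073 for MT-ATP8. It ranged from -0.098 to 0.16 for MT-ND1, -0.039 to 0.28 for MT-ND2, -0.086 to 0.034 for MT-ND3, -0.14 to 0.45 for MT-ND4 and -0.085 to 0.22 for MT-CYB. The median of the 10 stayed below 0 in TE (-0.54 to -0.21) and RF (-0.46 to -0.11) when any culture was left out.

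The 20 genes with the most counts among those not mitochondrially encoded were left out of the library total. The 10 genes then held 0.907% of RF counts in DMSO and 0.787% in rapamycin, and 0.883% of total RNA counts in DMSO. The full counts of each gene were also divided by only its bases that belong to no other protein-coding gene. MT-ATP8 then rose to 2078 and 1446 CPM per kilobase of RF and to 458 and 457 of total RNA in DMSO and rapamycin. MT-ATP6 rose to 414 of total RNA in DMSO. Reads on the shared bases could not be told apart in these counts. The span of RF levels, the FPKM check of rapamycin 2 and the ratio of MT-ATP8 to MT-ATP6 without each culture were also chosen after seeing the data. No fitted value of the 10 genes was called with 3 cultures a group, although the groups did not overlap for MT-ND3 and MT-ND2 in RF and MT-ND3 in TE. A change of the size of these fitted values is neither shown nor shown to be absent. RF depth limits MT-ND4 most, with 36 counts in rapamycin 3.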
